A study of Arabidopsis thaliana with 6 samples.

Results

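NADPH oxidases of plants, called respiratory burst oxidase homologues (RBOH), form a family of 10 genes in Arabidopsis thaliana, RBOHA to RBOHJ. The members were taken by their locus names from a table of read counts that lists 33602 genes, and all 10 were present. The counts came from polyA RNA of protoplasts of the floral abscission zone, the layers of cells through which sepals, petals and stamens are shed. Secession cells (SEC) are the abscission zone cells on the organs that separate, and residuum cells (REC) are those that stay with the receptacle. There were 3 SEC libraries and 3 REC libraries, all from flowers at stage 16 and all from plants with the transgene proQRT2::nlsGFP-GUS, which expresses a nuclear fluorescent protein from the promoter of QRT2, a polygalacturonase gene. Cells were sorted by that fluorescence, per the series' design text. Nothing in the labels ties the numbered libraries of a group to separate plants or separate sorts. The p-values therefore cover the spread between these samples alone, and that spread may be technical.

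An RBOH protein sits in the plasma membrane, takes electrons from NADPH in the cytosol and passes them to oxygen outside the cell. The superoxide so formed turns into hydrogen peroxide in the cell wall, where peroxidases can use it to link lignin monomers. The enzymes are switched on by calcium, which binds to EF-hands in their amino-terminal part, and by kinases that phosphorylate the same part. RBOHD is the main oxidase of the immune and wound burst, RBOHF works with RBOHD in stress and abscisic acid responses and supplies superoxide for lignification of the Casparian strip in roots, and RBOHC drives the growth of root hairs. RBOHH and RBOHJ act in pollen tubes, RBOHE in the tapetum of the anther, and RBOHB in seeds. The study, by its title, is about a lignin brace in the wall, and setting SEC against REC shows which oxidase genes each side of the break expresses.

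Total counts over genes were between 13222538 and 17192864 per library. Levels are given in CPM, the count of a gene after all libraries are brought to the same size. Across genes, log2 CPM correlated at 0.934 to 0.957 between SEC libraries, 0.886 to 0.914 between REC libraries and 0.448 to 0.563 between the groups. Of 5 abscission marker genes, 4 were higher and 1 lower in SEC, beside 28.9% and 31.9% of all tested genes. QRT2, the source of the reporter's promoter, was at 1716 ± 151 CPM in SEC, against 41.9 ± 32.7 CPM in REC (SD, n = 3). IDA, the gene of the peptide that triggers shedding, had 5586, 5054 and 3689 counts in the SEC libraries, against 0, 6 and 105 in REC, so REC replicate 3 held most of the REC counts. The lower one was HSL2, a receptor gene for that peptide, at 16.7 ± 4.90 CPM in SEC, against 55.8 ± 13.8 CPM in REC (SD, n = 3; log2 -1.74 ± 0.32, SE; edgeR adjusted p = 0.00207). Mesophyll markers summed to 51.7 to 63.1 CPM in SEC, against 923 to 2010 CPM in REC, with 4 of 5 lower in SEC. Epidermis markers summed to 0 to 4.35 CPM in SEC, against 33.2 to 53.4 CPM in REC, with 3 of 4 lower. Both counts stand beside 31.9% lower over all tested genes. Markers of guard cells, xylem vessels and phloem stayed at or below 12.6 CPM in sum in every library. The part of these other cell types in the results on RBOH genes was not tested. In such bulk samples, fewer cells of a type and less RNA per cell cannot be told apart.

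RBOHD, RBOHF and RBOHC were the abundant NADPH oxidase genes of secession cells, and all were higher there than in residuum cells. RBOHE was also called higher, at a far lower level, and RBOHB was not called. No member was called lower by the quasi-likelihood test of edgeR at an adjusted p under 0.05, nor by DESeq2 or limma voom, and none had an unadjusted p under 0.05 in that direction. Of the 10 members, 5 had enough counts to be tested, and 4 of these were called higher in SEC, beside 28.9% of all 17246 genes tested (60.8% in either direction). Over all genes, 4978 were higher and 5499 (31.9%) lower. Scaling by library size alone gave 3521 higher and 6925 lower genes and a median log2 fold change over all genes of -0.61, against -0.07 with the trimmed mean (TMM) scaling used here. Of the members, 3 were then higher and 0 lower. RBOHC and RBOHE reached the minimum level of 0.706 CPM in 2 of 3 REC libraries and passed the filter through their SEC libraries, so the count of called members is no support for a direction of the family.

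**Figure D1:**
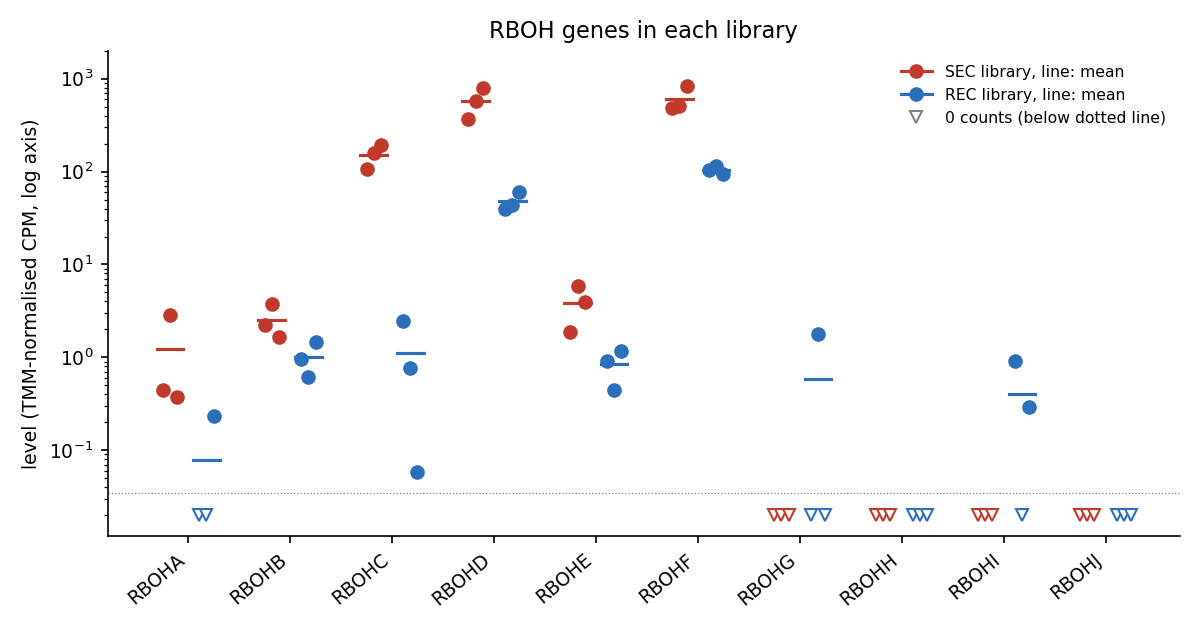
Level of each RBOH gene in each library, in TMM-normalised CPM on a log axis, with SEC libraries (red) left of REC libraries (blue), a line at each group's mean, and open triangles for libraries with 0 counts. RBOHC, RBOHD and RBOHF lie above 100 CPM in every SEC library, RBOHC lies below 2.5 CPM in every REC library, and RBOHH and RBOHJ have 0 counts throughout.

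RBOHC (AT5G51060; TAIR10 chromosome 5, 20757284 to 20762431, minus strand), also known as ROOT HAIR DEFECTIVE 2, showed the widest difference among the tested members. It had 1188, 2323 and 2065 counts in SEC replicates 1, 2 and 3, against 41, 14 and 1 in REC replicates 1, 2 and 3. Every SEC library held at least 1188 counts and no REC library more than 41, so the groups did not overlap. The gene stood at 152 ± 43.6 CPM in SEC, against 1.10 ± 1.24 CPM in REC (SD, n = 3), or log2 7.11 ± 0.86 (SE; edgeR adjusted p = 0.000236). Only 1.8% of all tested genes had a larger log2 fold change. The REC libraries themselves differed widely, and without REC replicate 1 the log2 fold change was 8.46. The REC library with the most IDA counts, replicate 3, had only 1 RBOHC count, and without that library the log2 fold change was 6.57.

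RBOHD (AT5G47910; chromosome 5, 19397443 to 19402061, plus strand) had 4112, 8345 and 8625 counts in the SEC libraries, against 662, 789 and 1035 in the REC libraries. The lowest SEC library, replicate 1, lay well above the highest REC library, replicate 3. That REC library, which also held the most IDA counts in REC, had RBOHD at 60.86 CPM, against 39.95 and 43.56 CPM in REC replicates 1 and 2. RBOHF, in contrast, was lowest there among the REC libraries. The part of SEC-like cells in these levels was not tested. The gene stood at 579 ± 218 CPM in SEC, against 48.1 ± 11.2 CPM in REC (SD, n = 3), or log2 3.59 ± 0.35 (SE; edgeR adjusted p = 8.12e-05). Of all tested genes, 6.11% had a larger log2 fold change. Genes of the wound and elicitor response, a setting in which RBOHD is known to be active, were also measured. Of 7 such marker genes, 6 were higher in SEC and 0 lower, beside 28.9% and 31.9% of all tested genes. The higher genes numbered 5 with library size alone and 4 with a filter of 10 CPM in 3 libraries. The genes FRK1 and CYP81F2 did not pass that filter and were not tested under it. The median log2 fold change was 3.34, and their sum was 2640 to 2740 CPM in SEC, against 346 to 467 CPM in REC. Among the 7 genes, WRKY33 was at 969 ± 51.2 CPM in SEC, against 154 ± 39.4 CPM in REC (SD, n = 3). The receptor-like kinase gene FRK1 was at 12.1 ± 4.93 CPM in SEC, against 0.138 ± 0.189 CPM in REC. The smallest difference was that of WRKY40 (log2 0.91, edgeR adjusted p = 0.0267). CYP81F2 overlapped between the groups and was not called (edgeR adjusted p = 0.11). The cells were analysed as protoplasts, and the part of wall digestion in these levels was not tested.

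RBOHF (AT1G64060; chromosome 1, 23769774 to 23776931, plus strand) had 5426, 7427 and 8903 counts in the SEC libraries, against 1708, 2085 and 1611 in the REC libraries. It was the most even of the abundant members within REC, with 94.7 to 115 CPM, and in SEC replicate 3 stood apart at 827 CPM from 482 and 508 CPM in the others. The means were 605 ± 192 CPM in SEC, against 104 ± 10.3 CPM in REC (SD, n = 3), or log2 2.54 ± 0.27 (SE; edgeR adjusted p = 0.000124), and 11.4% of all tested genes had a larger one. RBOHC, RBOHD and RBOHF were called higher under all 15 alternatives run for each.

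**Figure D2:**
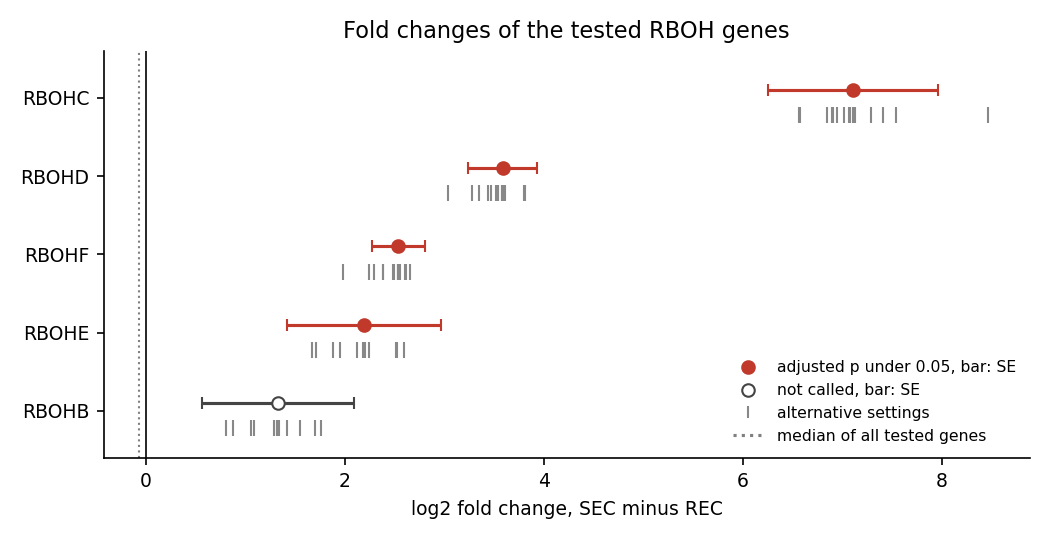
Log2 fold change of each tested RBOH gene, SEC minus REC (points; bars are the SE, filled where the adjusted p was under 0.05), with the values under alternative settings as grey ticks below and the median of all tested genes as a dotted line. RBOHC lies farthest right at 7.11, with 1 tick at 8.46 for the fit without REC replicate 1, and RBOHB at 1.33 was not called.

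The promoters of RBOHC, RBOHD and RBOHF are shown because these genes were higher in SEC together. Each line gives the 250 bases before the gene's start in the RefSeq annotation of TAIR10.1, 5′ to 3′ on the gene's own strand, with capitals for the W-box core TTGAC on either strand.
RBOHC, chr5:20762462-20762711, minus strand: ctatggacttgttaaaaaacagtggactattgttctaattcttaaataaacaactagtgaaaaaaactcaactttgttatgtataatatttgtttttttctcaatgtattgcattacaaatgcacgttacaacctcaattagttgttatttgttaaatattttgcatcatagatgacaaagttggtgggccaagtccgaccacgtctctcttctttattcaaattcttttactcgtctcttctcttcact
RBOHD, chr5:19396791-19397040, plus strand: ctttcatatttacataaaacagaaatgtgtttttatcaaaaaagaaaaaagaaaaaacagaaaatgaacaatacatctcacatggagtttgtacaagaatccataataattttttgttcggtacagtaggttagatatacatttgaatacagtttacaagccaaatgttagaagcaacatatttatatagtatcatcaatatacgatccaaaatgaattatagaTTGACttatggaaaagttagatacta
RBOHF, chr1:23769524-23769773, plus strand: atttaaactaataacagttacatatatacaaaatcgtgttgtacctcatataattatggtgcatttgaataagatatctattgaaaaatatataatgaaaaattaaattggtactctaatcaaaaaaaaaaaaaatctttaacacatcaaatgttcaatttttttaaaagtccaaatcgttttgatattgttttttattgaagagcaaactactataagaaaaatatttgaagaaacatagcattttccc

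The 3 windows shared no motif among those searched. The W-box core, the sequence bound by WRKY factors, occurred once in the RBOHD window, 26 bases before the RefSeq start. That start is 19397041, against 19397443 in the coordinates that came with the counts. The core was in the windows of 6 of the 10 members, beside 44.52% of the 32819 promoters of the same length. The auxin response element TGTCTC was found in the window of RBOHJ alone (10.85% of all promoters), and of the AC elements of lignin genes ACCAACC was found in that of RBOHA alone (2.76%) and ACCTACC in none (1.15%). The G-box CACGTG (5.83%), the GCC-box GCCGCC (1.98%) and the root hair element RHE (0.71%) were not in any member's window. All motifs were searched on both strands, and a match or its lack describes these letters only.

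The proportions of the abundant members were set side by side, in a design where no single share or ratio can pass a threshold of 0.05. Per kilobase of exon, RBOHF led in REC at 26.1 ± 2.57 CPM per kb, followed by RBOHD at 13.4 ± 3.10 CPM per kb (SD, n = 3), and RBOHF was the higher of the pair in every REC library. In SEC they did not differ beyond their spread, at 161 ± 60.6 CPM per kb for RBOHD and 152 ± 48.2 CPM per kb for RBOHF, with RBOHF ahead in replicate 1 and RBOHD in replicates 2 and 3. The ratio of RBOHD to RBOHF per kb was 0.84, 1.25 and 1.07 in the SEC libraries, against 0.43, 0.419 and 0.712 in the REC libraries. These ratios did not overlap (exact two-sided permutation p = 0.1, the smallest that 3 against 3 libraries allow), and the nearest were SEC replicate 1 and REC replicate 3.

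RBOHC followed in SEC, at 46.2 ± 13.2 CPM per kb, below RBOHD and RBOHF in every SEC library. In REC it stood at 0.335 ± 0.377 CPM per kb and did not differ beyond the spread from RBOHB at 0.376 ± 0.160 or RBOHE at 0.252 ± 0.111 CPM per kb (SD, n = 3). Its share of the family's length-scaled counts was 12.55%, 14.29% and 11.91% in the SEC libraries, against 1.95%, 0.56% and 0.04% in REC (exact two-sided permutation p = 0.1). RBOHF made up 42.4 ± 4.78% of the family in SEC and 64.1 ± 6.29% in REC, without overlap (exact two-sided permutation p = 0.1, n = 3 each). RBOHD made up 44.0 ± 3.82% in SEC and 32.7 ± 6.8% in REC, and its shares overlapped (exact two-sided permutation p = 0.2, n = 3 each). RBOHC, RBOHD and RBOHF together held 98.8% to 99.61% of the family in SEC libraries and 97.45% to 97.77% in REC libraries. The 10 genes summed to 957, 1249 and 1826 CPM in SEC, against 148, 162 and 159 CPM in REC.

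**Figure D3:**
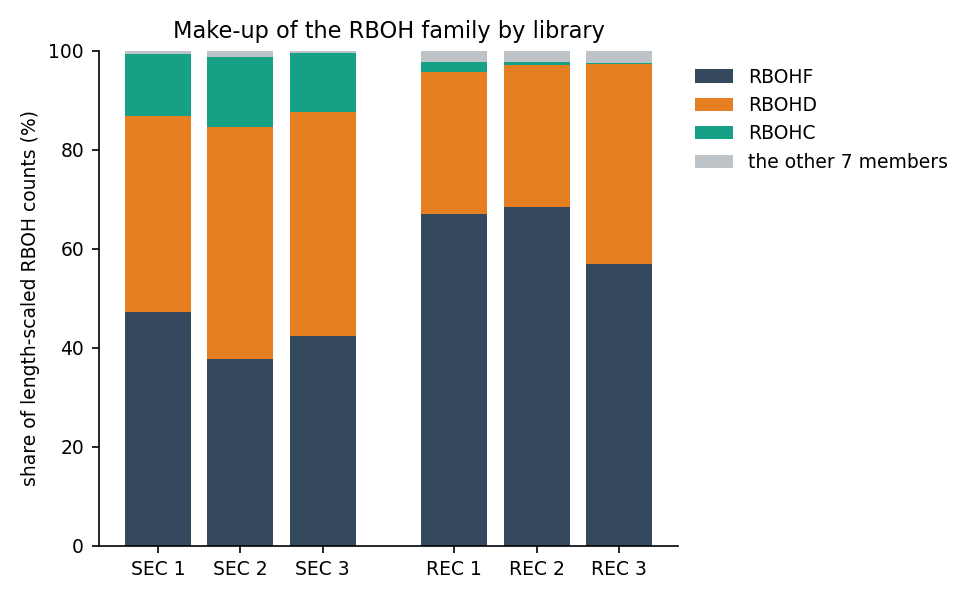
Share of each member in the RBOH counts of each library, after division by exon length, in percent, with SEC libraries left of REC libraries. RBOHC takes 11.91% to 14.29% of the family in SEC and at most 1.95% in REC, while RBOHF takes 37.63% to 47.2% in SEC and 56.89% to 68.48% in REC.

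The minor members were near the limit of detection. RBOHE (AT1G19230; chromosome 1, 6644189 to 6649375, plus strand) had 21, 85 and 42 counts in SEC, against 15, 8 and 20 in REC, and a difference of log2 2.19 ± 0.77 (SE; edgeR adjusted p = 0.0374). That call ended without SEC replicate 2 (adjusted p = 0.2), SEC replicate 3 (0.0884), REC replicate 1 (0.0721) or REC replicate 2 (0.0962), with no filter (0.057), with upper-quartile scaling (0.0577) and with library size alone (0.0986). It was kept with DESeq2 (adjusted p = 0.0161) and limma voom (0.0325), within a range of 0.0161 to 0.2 over its alternatives. RBOHE overlaps AT1G19240 on the opposite strand by 133 bases, and that gene had fewer counts in SEC (34, 31 and 1) than in REC (159, 185 and 187).

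RBOHB (AT1G09090; chromosome 1, 2932739 to 2936586, plus strand) had 25, 55 and 18 counts in SEC, against 16, 11 and 25 in REC. Its scaled levels did not overlap, with 1.67 CPM as the lowest SEC value and 1.47 CPM as the highest REC value. The difference did not pass the test (log2 1.33 ± 0.76, SE, edgeR adjusted p = 0.163). That separation came with the TMM scaling, whose factors were 0.814 to 0.852 in SEC and 1.178 to 1.24 in REC. In raw counts SEC replicate 3 (18) lay below REC replicate 3 (25). With library size alone the log2 fold change was 0.8 (edgeR adjusted p = 0.399). Groups without overlap and with SEC above were found for 34.6% of all tested genes. RBOHB overlaps RPT5B, a proteasome subunit gene, on the opposite strand by 59 bases, and that gene had far more counts, 1054, 1428 and 639 in SEC, against 655, 726 and 1146 in REC.

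The remaining members were not tested for lack of counts. RBOHA (AT5G07390; chromosome 5, 2335895 to 2339913, minus strand) had 5, 42 and 4 counts in SEC, against 0, 0 and 4 in REC, so most of its reads came from SEC replicate 2. It overlaps AT5G07380 on the opposite strand by 169 bases, which had 73, 108 and 93 counts in SEC, against 0, 0 and 76 in REC. The strand setting of the counting is not given in the sources used here, so the reads of such pairs cannot be told apart with certainty. RBOHG (AT4G25090; chromosome 4, 12878771 to 12883701, minus strand) had 0 counts in each SEC library, which allows up to 0.0818 CPM over the group, and 32 counts in REC replicate 2 alone. Both neighbouring genes had far higher counts in REC. FSD1, 494 bases away on the same strand, had 226, 1013 and 965 counts in SEC, against 27065, 24914 and 21515 in REC. CHLM, which overlaps RBOHG by 37 bases on the opposite strand, had 0, 4 and 0 counts in SEC, against 1037, 831 and 516 in REC. The part of these neighbours in the RBOHG counts was not tested.

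RBOHI (AT4G11230; chromosome 4, 6840491 to 6845591, minus strand) had 0 counts in each SEC library, against 15, 0 and 5 in REC. RBOHH (AT5G60010; chromosome 5, 24160456 to 24164755, plus strand) and RBOHJ (AT3G45810; chromosome 3, 16832883 to 16837569, minus strand), the pollen tube oxidases, had 0 counts in all 6 libraries, which allows up to 0.0818 CPM over the SEC group and 0.058 CPM over the REC group. Pollen markers were also near 0, with a sum of 0.533 to 1.49 CPM in SEC, against 0.302 to 1.35 CPM in REC, and none of the 5 reached the level needed for a test.

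The nearest relatives by sequence of RBOHC and RBOHF were at low levels or at 0, while RBOHD had an abundant member among its nearest. Coding sequences of the members were 52.3% to 80.5% identical in pairs, and RBOHH and RBOHJ formed the closest pair. The nearest relative of RBOHC was RBOHG (74.7% identity), which had 0 counts in SEC, and that of RBOHF was RBOHI (66.0%), also at 0 there. For RBOHD, RBOHB and RBOHC tied as nearest (63.0% each), at 2.55 ± 1.08 CPM and 152 ± 43.6 CPM in SEC (SD, n = 3). No stretch of 50 bases within an exon of any member occurred elsewhere in the nuclear chromosomes of TAIR10.1. Reads of that length that lie within exons and have no errors would thus not be shared between members. Reads across splice junctions were not checked. RBOHC, RBOHD and RBOHF overlap no annotated gene. The gene that faces RBOHC across 1634 bases on the opposite strand, CLPD, which encodes a chloroplast Clp ATPase, was at 1471 ± 119 CPM in SEC, against 75.2 ± 17.2 CPM in REC (SD, n = 3; log2 4.29 ± 0.26, SE; edgeR adjusted p = 1.51e-05).

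Most genes listed as activators of RBOH proteins were higher in SEC. Of 16 kinases and calcium sensors 15 were tested: 10 were higher, 2 lower and 3 without a call, beside 28.9% higher and 31.9% lower over all tested genes. The median log2 fold change was 1.05, against -0.07 over all genes. With library size alone the list held 7 higher and 4 lower members. BIK1, the receptor-bound kinase that phosphorylates RBOHD, was at 549 ± 71.9 CPM in SEC, against 53.4 ± 3.12 CPM in REC (log2 3.36 ± 0.21, SE; edgeR adjusted p = 1.62e-05). CRK2, a cysteine-rich receptor-like kinase that acts on RBOHD, was at 174 ± 47.7 CPM in SEC, against 19.6 ± 11.3 CPM in REC (edgeR adjusted p = 0.000445). CBL9, a calcium sensor that works with the kinase CIPK26 on RBOHF, was at 42.7 ± 9.41 CPM in SEC, against 9.66 ± 2.91 CPM in REC (edgeR adjusted p = 0.000918). CIPK26 itself and OST1, a kinase of abscisic acid signalling that phosphorylates RBOHF, were the 2 lower members, with log2 fold changes of -0.92 and -0.87, and were picked out after their values were seen.

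The listed receptors upstream of RBOH proteins had 5 higher, 0 lower and 5 uncalled of 10 tested members. Over all tested genes, 28.9% were higher and 31.9% lower. The median log2 fold change of the list was 1.25. EFR, the receptor of a bacterial elongation factor peptide, was at 81.5 ± 23.0 CPM in SEC, against 5.63 ± 1.39 CPM in REC (edgeR adjusted p = 4.69e-05). The co-receptor gene BAK1 was at 179 ± 5.76 CPM in SEC, against 38.3 ± 11.6 CPM in REC (edgeR adjusted p = 0.000192), and the flagellin receptor gene FLS2 at 34.0 ± 5.36 CPM in SEC, against 12.8 ± 3.89 CPM in REC (edgeR adjusted p = 0.00583). Among 3 genes that restrain the burst, the ubiquitin ligase gene PIRE was higher (log2 1.40 ± 0.22, SE; edgeR adjusted p = 0.000808) and CPK28, whose kinase promotes the turnover of BIK1, was lower (log2 -1.32 ± 0.32, SE; edgeR adjusted p = 0.00751). The kinase gene PBL13 was higher at 6.61 ± 2.61 CPM in SEC, against 0.6 ± 0.713 CPM in REC (edgeR adjusted p = 0.0328), but this call ended without each SEC library in turn (adjusted p = 0.0519 to 0.105), without REC replicate 3 (0.0674) and with library size alone (0.0624), and without REC replicate 1 its log2 fold change was 4.96 in place of 3.45.

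The ROP GTPases, small G proteins that bind the amino-terminal part of RBOH enzymes, and their regulators were the next list. Of 15 listed genes 10 were tested: 1 was higher, 5 were lower and 4 without a call, beside 28.9% higher and 31.9% lower over all tested genes. The median log2 fold change was -0.85, and the lower genes numbered 3 at an adjusted p under 0.01 and 8 with library size alone. How far reads are shared between ROP genes was not tested. ROP6 was at 2.87 ± 0.342 CPM in SEC, against 27.2 ± 4.64 CPM in REC (edgeR adjusted p = 0.000103), and ROP11 at 9.39 ± 1.89 CPM in SEC, against 24.8 ± 1.09 CPM in REC (edgeR adjusted p = 0.00364). The exchange factor gene ROPGEF1 was at 1.56 ± 1.33 CPM in SEC, against 28.9 ± 2.19 CPM in REC (log2 -4.23, edgeR adjusted p = 0.000562; -5.19 without SEC replicate 3). The only higher member was ROP1, at 10.8 CPM in SEC, against 0.757 CPM in REC, named after its values were seen.

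**Figure D4:**
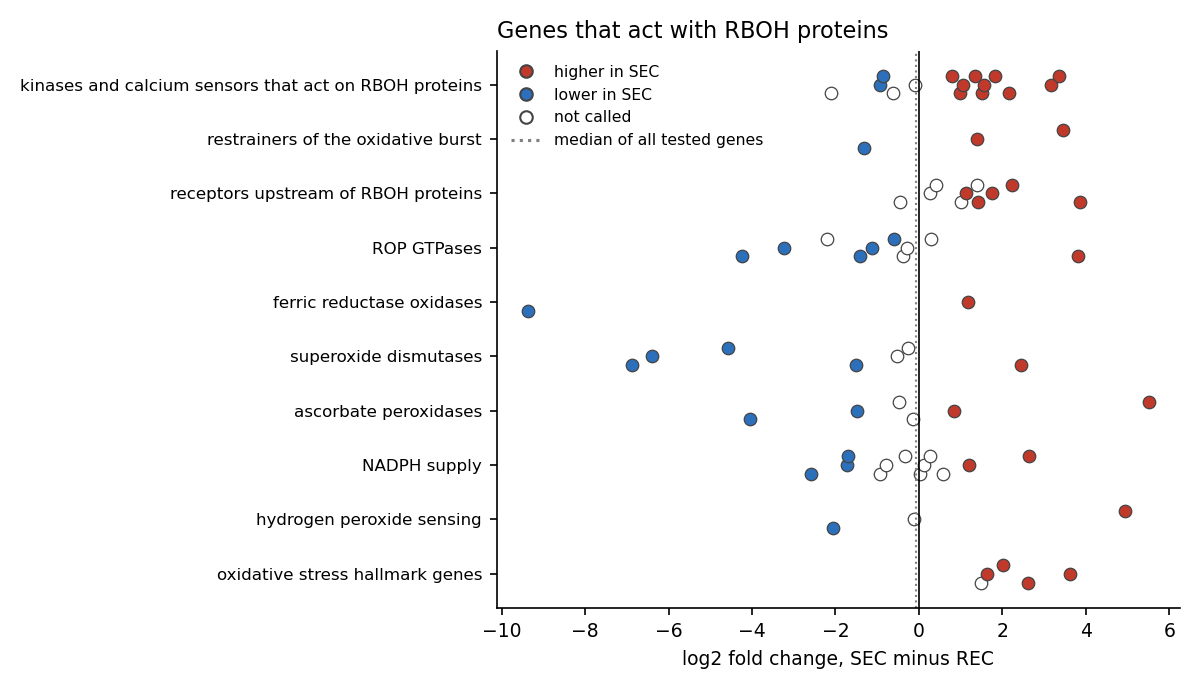
Log2 fold change, SEC minus REC, of each tested gene in the lists of RBOH partners and of related redox genes, with red for higher and blue for lower in SEC at an adjusted p under 0.05 and white for genes not called; the dotted line is the median of all tested genes. In the kinase list 10 of 15 points are red, in the ROP list 5 of 10 are blue, and the point farthest left, FRO7, is a fitted value for a gene with 0 counts in SEC.

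Transcript levels of enzymes that supply NADPH differed by gene. Of 13 listed genes 12 were tested: 2 were higher, 3 lower and 7 without a call (2 higher and 6 lower with library size alone). These counts stood beside 28.9% higher and 31.9% lower over all tested genes. NADP-ME2, a cytosolic malic enzyme that makes NADPH, was the most abundant gene of the list at 7639 ± 954 CPM in SEC, against 1235 ± 156 CPM in REC (log2 2.63 ± 0.22, SE; edgeR adjusted p = 4.09e-05). The cytosolic isocitrate dehydrogenase gene cICDH was at 67.0 ± 21.0 CPM in SEC, against 404 ± 30.1 CPM in REC (edgeR adjusted p = 0.000101), and NADP-ME3 at 34.9 ± 2.62 CPM in SEC, against 114 ± 5.53 CPM in REC (edgeR adjusted p = 0.000156). Of the ferric reductase oxidases, which share the membrane core of RBOH proteins but reduce iron or copper, 2 of 8 were tested. FRO3 was higher at 53.6 ± 8.06 CPM in SEC, against 23.5 ± 7.89 CPM in REC (edgeR adjusted p = 0.00985; 0.0888 with library size alone), and FRO7 had 0 counts in SEC and 5.62 ± 4.71 CPM in REC.

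Genes that handle or sense the products were mixed. The counts of each list stand beside 28.9% higher and 31.9% lower over all tested genes. Of 7 tested superoxide dismutase genes, 1 was higher and 4 were lower. Among the lower were FSD1 (log2 -4.58 ± 0.54, SE), the mitochondrial MSD1 (log2 -1.51 ± 0.19, SE) and the chloroplast FSD3. The few SEC counts of FSD3 (4) all came from replicate 2. The higher gene, named after its values were seen, was CSD1. It was at 197 ± 82.5 CPM in SEC, against 36.2 ± 8.27 CPM in REC (edgeR adjusted p = 0.000701). Of 6 ascorbate peroxidase genes, 2 were higher and 2 lower (1 and 4 with library size alone). The chloroplast genes TAPX and SAPX were lower by log2 fold changes of -4.05 and -1.49. The stress-induced APX2 was higher, at 2.1 ± 0.545 CPM in SEC, against 0.0368 ± 0.0638 CPM in REC. The other higher gene, named after its values were seen, was APX1 at 1066 ± 140 CPM in SEC, against 597 ± 72.0 CPM in REC. Of 4 listed genes of hydrogen peroxide sensing 3 were tested: 1 was higher, 1 lower and 1 without a call. The uncalled one, named after its values were seen, was HPCA1, a receptor gene for hydrogen peroxide, at 7.88 ± 3.84 CPM in SEC, against 8.55 ± 1.90 CPM in REC (log2 -0.12 ± 0.48, SE; edgeR adjusted p = 0.848). OXI1, a kinase gene induced by hydrogen peroxide, was at 591 ± 58.4 CPM in SEC, against 19.2 ± 2.99 CPM in REC (log2 4.95 ± 0.24, SE; edgeR adjusted p = 1.17e-05). UPB1, a repressor of peroxidase genes, was at 3.27 ± 3.12 CPM in SEC, against 13.7 ± 7.30 CPM in REC (edgeR adjusted p = 0.0416), a call that ended without SEC replicate 2 (0.0982), SEC replicate 3 (0.116), REC replicate 1 (0.0626) or REC replicate 3 (0.127), with a log2 fold change of -3.23 in place of -2.07 without SEC replicate 1. Of 5 hallmark genes of oxidative stress, 4 were higher in SEC and 0 lower, with AT1G05340 at 150 ± 19.8 CPM in SEC, against 12.3 ± 2.09 CPM in REC (edgeR adjusted p = 1.89e-05), AT1G57630 at 28.6 ± 7.51 CPM in SEC, against 7.08 ± 0.540 CPM in REC, and ATTI1, a trypsin inhibitor gene, at 657 ± 105 CPM in SEC, against 108 ± 68.6 CPM in REC (log2 2.60; 3.27 without REC replicate 3).

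Likeness of pattern was measured as Pearson's r of log2 CPM over the 6 libraries, for the 2 members with the highest level per kb and among 10845 genes with a mean of at least 10 CPM. Nearest to RBOHD were BSL3 (r = 0.9992), a phosphatase gene of brassinosteroid signalling, the decapping gene DCP5-L (0.9987) and AT4G12770 (0.998). Nearest to RBOHF were AT4G32160 (0.999), SEC8 (AT3G10380; 0.9988), which encodes an exocyst subunit and is not named for the secession cells, and AT4G11860 (0.9984). The libraries fall into 2 groups, and 1732 genes for RBOHD and 1630 for RBOHF had r above 0.95, so these values describe the ranking only.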

How the data were processed

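The authors deposited 1 table of raw, unscaled read counts by gene. The submitters' processing notes list TopHat2 2.0.9, HTSeq 0.6.1, Trimmomatic 0.32.3 and Picard 1.119 among the tools, and the build TAIR10. Which annotation release and strand setting were used, and whether duplicates were removed, is not given in the sources used here. Per the labels' protocols, cDNA from protoplast RNA was amplified before library construction, so reads are not independent molecules, and limits from counts cover counting error only. The 5 summary rows of the counter were left out. They hold, among others, the reads assigned to no counted feature (42.78% to 45.91% per library). Whether those reads lay outside genes, in introns or on the other strand of a gene was not tested.

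Here edgeR 4.0.16 in R 4.3.3 tested the counts that passed filterByExpr, with TMM scaling, by its quasi-likelihood F test, and p-values were adjusted by Benjamini and Hochberg's method over all 17246 tested genes (threshold 0.05); the procedure was tested on simulated data. Log2 fold changes are SEC minus REC, the SE is the size of the fold change over the square root of F, and levels are TMM-normalised CPM. The limit for 0 counts is 3 counts over the group. Levels per kb and shares used RefSeq exon lengths of TAIR10.1. Starts in the table equal RefSeq starts for 14406 genes when read as counted from 0 (134 when read from 1), and are printed counted from 1. Coding sequences were aligned with MAFFT 7.526.

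Members, gene lists and tests were chosen with earlier results of these data known. There were 10 lists of pathway genes and 8 of markers, with 128 entries. Named genes are all members, up to 3 called genes with the smallest adjusted p per pathway list, and the 3 genes most like each of the 2 leading members. Alternatives were RLE and upper-quartile scaling, library size alone, no filter, a filter of 10 CPM in 3 libraries, DESeq2 1.42.0, limma 3.58.1 voom with quality weights, a replicate block, a threshold of 0.01 and each library left out.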

Additional observations from a re-analysis of the deposited data

How the results depend on the processing

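RBOHC, RBOHD and RBOHF kept their direction and call under all alternatives run, with log2 fold changes of 6.56 to 8.46, 3.04 to 3.81 and 1.98 to 2.65. RBOHE kept its direction and lost its call in 9 of 14 alternatives, so the count of higher members was 3 or 4 throughout, and that of lower members 0. RBOHB was uncalled in 14 of 14, with adjusted p of 0.0788 to 0.509. With no filter RBOHA, RBOHG and RBOHI could be tested and were not called (adjusted p = 0.126, 0.139 and 0.127). A filter of 10 CPM left no value for RBOHB and RBOHE. The deviations of same-numbered libraries from their group means correlated at -0.022, -0.01 and -0.016, and those of other pairs at up to 0.04. No shared effect of the numbers was seen. Such values cannot show whether same-numbered libraries came from the same plants or sort. The replicate block gave 4644 higher and 4871 lower genes and 3 higher members, and left RBOHE (adjusted p = 0.135) and PBL13 (0.064) uncalled. Over leaving out 1 library, higher genes numbered 4091 to 5438 and lower genes 4981 to 5439, and the difference in share, SEC minus REC, was 9.34 to 15.24 percentage points for RBOHD and -25.33 to -19.35 for RBOHF. Of 28 named pathway genes, 3 lost their call in some alternative and 0 changed direction. Depth limits what can be said of RBOHA, RBOHG, RBOHH, RBOHI and RBOHJ, which had 0 to 55 counts over all libraries.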

Other observations

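Because RBOHC is known for its role in root hairs, a list of 7 root hair genes was set up after the values of RBOHC had been seen, and is given without a test. The regulators RHD6 and RSL4 and the wall genes EXPA18, LRX1 and PRP3 had 0 counts in all 6 libraries. COBL9 had 0, 2 and 2 counts in SEC and 0, 0 and 2 in REC, and EXPA7 had 1, 0 and 0 counts in SEC and 0, 6 and 0 in REC. The RBOHC reads of secession cells, 5576 in all, stood beside at most 4 SEC counts of any of these genes. SGN1, the kinase gene that acts ahead of RBOHF in the root endodermis, was too low to be tested, at 1.67 CPM in SEC, against 0 counts in REC, and the receptor gene SGN3 of the same pathway was at 3.90 CPM in SEC, against 2.94 CPM in REC (log2 0.41, edgeR adjusted p = 0.657).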
